A study of Mus musculus with 55 samples.

Results

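The MHC class II genes H2-Aa, H2-Ab1, H2-Eb1, H2-DMa, Cd74 and Ciita were followed in the livers of Collaborative Cross (CC) mice. They were chosen by symbol, and 6 of the 37620 genes in the files belong to this set. CC lines were bred by crossing a common set of founder strains and inbreeding the offspring, so that mice of a line share most of their genotype and are biological replicates of it. All 55 mice were naive males aged 8 to 11.9 weeks, with body weights between 12.8 and 38 g, and each belonged to 1 of 29 lines. Lines IL-611, IL-670, IL-785, IL-2156 and IL-2750 were represented by 3 mice each. The lines IL-72, IL-219, IL-519, IL-521, IL-1052, IL-1061, IL-1513, IL-2011, IL-2146, IL-2680, IL-3348, IL-3438, IL-3575, IL-3912, IL-4052 and IL-4457 were represented by 2 mice each. A single mouse represented IL-557, IL-1141, IL-1452, IL-2126, IL-2689, IL-2693, IL-4032 and IL-4141. The animals came from differing generations of inbreeding, which limits how far mice of a line can be taken as identical. Between 20.5 and 34.0 M fragments per mouse were assigned to genes, with a median of 27.7 M. The labels name no library or sequencing batch, so no value was recomputed within batches.

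The transcript of albumin (Alb), which defines hepatocytes, was at no less than 8656 FPKM in any mouse. FPKM are fragments scaled for the length of the gene and for the depth of the mouse. For 44 of the 47 mice that had line mates, the mouse with the most similar scores over 11284 genes was a line mate. The 3 exceptions were both mice labelled IL-1052 (r = 0.000882 with each other) and mouse 1 of those labelled IL-2750. H2-Ea-ps also divided these lines, but within IL-2750 it set apart mouse 2 rather than mouse 1. Results that compare lines were therefore also computed without these 2 lines. Mouse 2 of IL-2156 had the highest level of all mice in each of the 6 genes, and values without it or its line are given where they matter.

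MHC class II molecules present peptides from taken-up proteins to CD4+ T cells. In mice there are 2 such molecules at the cell surface, A and E, each a pair of an alpha and a beta chain. H2-Aa and H2-Ab1 encode the alpha and beta chains of the A molecule, and H2-Eb1 encodes the beta chain of the E molecule. Cd74 encodes the invariant chain, which fills the peptide groove and guides new class II molecules to endosomes, and H2-DMa encodes a subunit of the chaperone that then exchanges the remnant of the invariant chain for peptide. Ciita encodes the transactivator that switches these genes on by docking to factors bound at their promoters. In the liver the pathway is known mainly from Kupffer cells, dendritic cells and B cells, with lower levels in sinusoidal endothelium. In bulk tissue fewer cells of a type and less RNA per cell cannot be told apart.

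On the mm9 build used for quantification, H2-DMa lies at chr17:34272127-34276046 on the forward strand, H2-Ab1 at chr17:34400154-34406363 on the forward strand, H2-Aa at chr17:34406276-34424772 on the reverse strand and H2-Eb1 at chr17:34442828-34453144 on the forward strand. Cd74 and Ciita lie on other chromosomes, Ciita at chr16:10480237-10527657, forward strand. All 6 are annotated as protein coding. The annotated ends of H2-Aa and H2-Ab1 overlap, and the H2-Aa isoform that reaches into H2-Ab1 was at 0% in all 55 mice. A second identifier in the files carries the symbol Ciita. It lies inside the Ciita gene and was not used.

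Transcription of class II genes depends on short promoter boxes, the X box bound by RFX proteins and the Y box bound by NF-Y. The RefSeq promoter table (build GRCm38.p6) held entries for 3 of the 6 genes, H2-Aa, H2-DMa and H2-Eb1. The 250 bases before the start sites of H2-Aa and H2-Eb1 are shown because they carry these boxes in the same order, although the expression of the 2 genes parted in several lines. Capitals mark the letters GCAAC, from the core of the X box, and CTGATTGG, the Y box.
H2-Aa, chr17:34287824-34288073 (GRCm38.p6, reverse strand): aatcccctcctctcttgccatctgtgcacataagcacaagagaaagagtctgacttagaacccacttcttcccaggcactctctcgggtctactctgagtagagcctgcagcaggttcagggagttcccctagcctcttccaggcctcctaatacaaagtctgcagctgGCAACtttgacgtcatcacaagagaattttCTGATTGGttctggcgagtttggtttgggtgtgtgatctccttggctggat
H2-Eb1, chr17:34305617-34305866 (GRCm38.p6, forward strand): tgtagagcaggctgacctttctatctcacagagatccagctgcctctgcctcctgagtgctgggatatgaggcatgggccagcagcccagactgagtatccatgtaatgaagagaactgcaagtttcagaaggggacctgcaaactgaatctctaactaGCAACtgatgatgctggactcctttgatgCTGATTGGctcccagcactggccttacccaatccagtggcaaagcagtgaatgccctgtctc
In H2-Aa 25 bases separate the letters GCAAC and CTGATTGG, and in H2-Eb1 24 bases do. On either strand, CTGATTGG alone occurred in 1258 of 32851 promoter windows of this length (3.83%) and GCAAC alone in 29.9% of them. GCAAC followed by CTGATTGG after 20 to 28 bases occurred in 19 windows (0.0578%), H2-Aa, H2-Eb1, H2-Oa and H2-Eb2 among them. This spacing was set after the sequences had been seen. Neither window of H2-DMa held CTGATTGG. The windows are reference sequence of a single strain, and founder sequences were not used here.

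H2-Aa, the alpha chain of the A molecule, had a lowest value of 4.15 FPKM, a median of 10.83 FPKM and a highest value of 187.77 FPKM over the 55 mice. The lowest line mean was in IL-72 (5.07 ± 1.30 FPKM, SD, n = 2) and the highest in IL-2156 (85.2 ± 90.1 FPKM, SD, n = 3). The SD of IL-2156 exceeds its mean because its mice were at 18.88, 187.77 and 49.06 FPKM. The mouse of IL-557 had 46.85 FPKM, and line mates lay closer together at 44.48 and 36.98 FPKM in IL-219 and at 39.12 and 39.03 FPKM in IL-3575. Among the lowest, IL-2146 had 4.87 and 6.64 FPKM and IL-1061 had 5.44 and 6.55 FPKM.

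H2-Ab1, the beta chain of the same molecule, ran from 2.12 FPKM in mouse 1 of IL-2011 over a median of 6.65 FPKM to 147.01 FPKM in mouse 2 of IL-2156. Its line means ran from 3.48 ± 1.92 FPKM in IL-2011 (SD, n = 2) to 67.6 ± 69.6 FPKM in IL-2156 (SD, n = 3). The mice of IL-219 had 22.62 and 19.51 FPKM, those of IL-3575 had 21.54 and 25.57 FPKM, and the mouse of IL-557 had 29.77 FPKM. These 3 lines were therefore high for both chains of the A molecule.

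Cd74, the invariant chain, was the most abundant of the 6 genes per length, with a lowest value of 10.21 FPKM, a median of 22.72 FPKM and a highest value of 408.35 FPKM. IL-1061 had the lowest line mean (11.1 ± 1.2 FPKM, SD, n = 2), and its 2 mice had 10.21 and 11.90 FPKM. In IL-2156 the values were 46.19, 408.35 and 90.86 FPKM, so that mouse 2 was far above its line mates. IL-219 (95.92 and 77.13 FPKM), IL-557 (89.24 FPKM) and IL-3575 (76.53 and 58.04 FPKM) were again high.

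H2-DMa, a subunit of the peptide exchange chaperone, was lower, with values from 0.24 FPKM in the mouse of IL-2693 over a median of 0.92 FPKM to 8.83 FPKM in mouse 2 of IL-2156. These values rest on 9 to 348 fragments per mouse. Ciita, the transactivator, was the lowest of the 6 genes, with values from 0.04 FPKM over a median of 0.09 FPKM to 1.51 FPKM, again in mouse 2 of IL-2156. It had 3 to 206 fragments per mouse, with a median of 12, so that most of its values carry a large counting error. The highest Ciita values after IL-2156 were 0.28 FPKM in IL-557, 0.25 FPKM in mouse 1 of IL-3575 and in mouse 2 of IL-3912, and 0.24 FPKM in mouse 1 of IL-219. Ciita was thus high in lines that were also high for H2-Aa and Cd74.

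**Figure D1:**
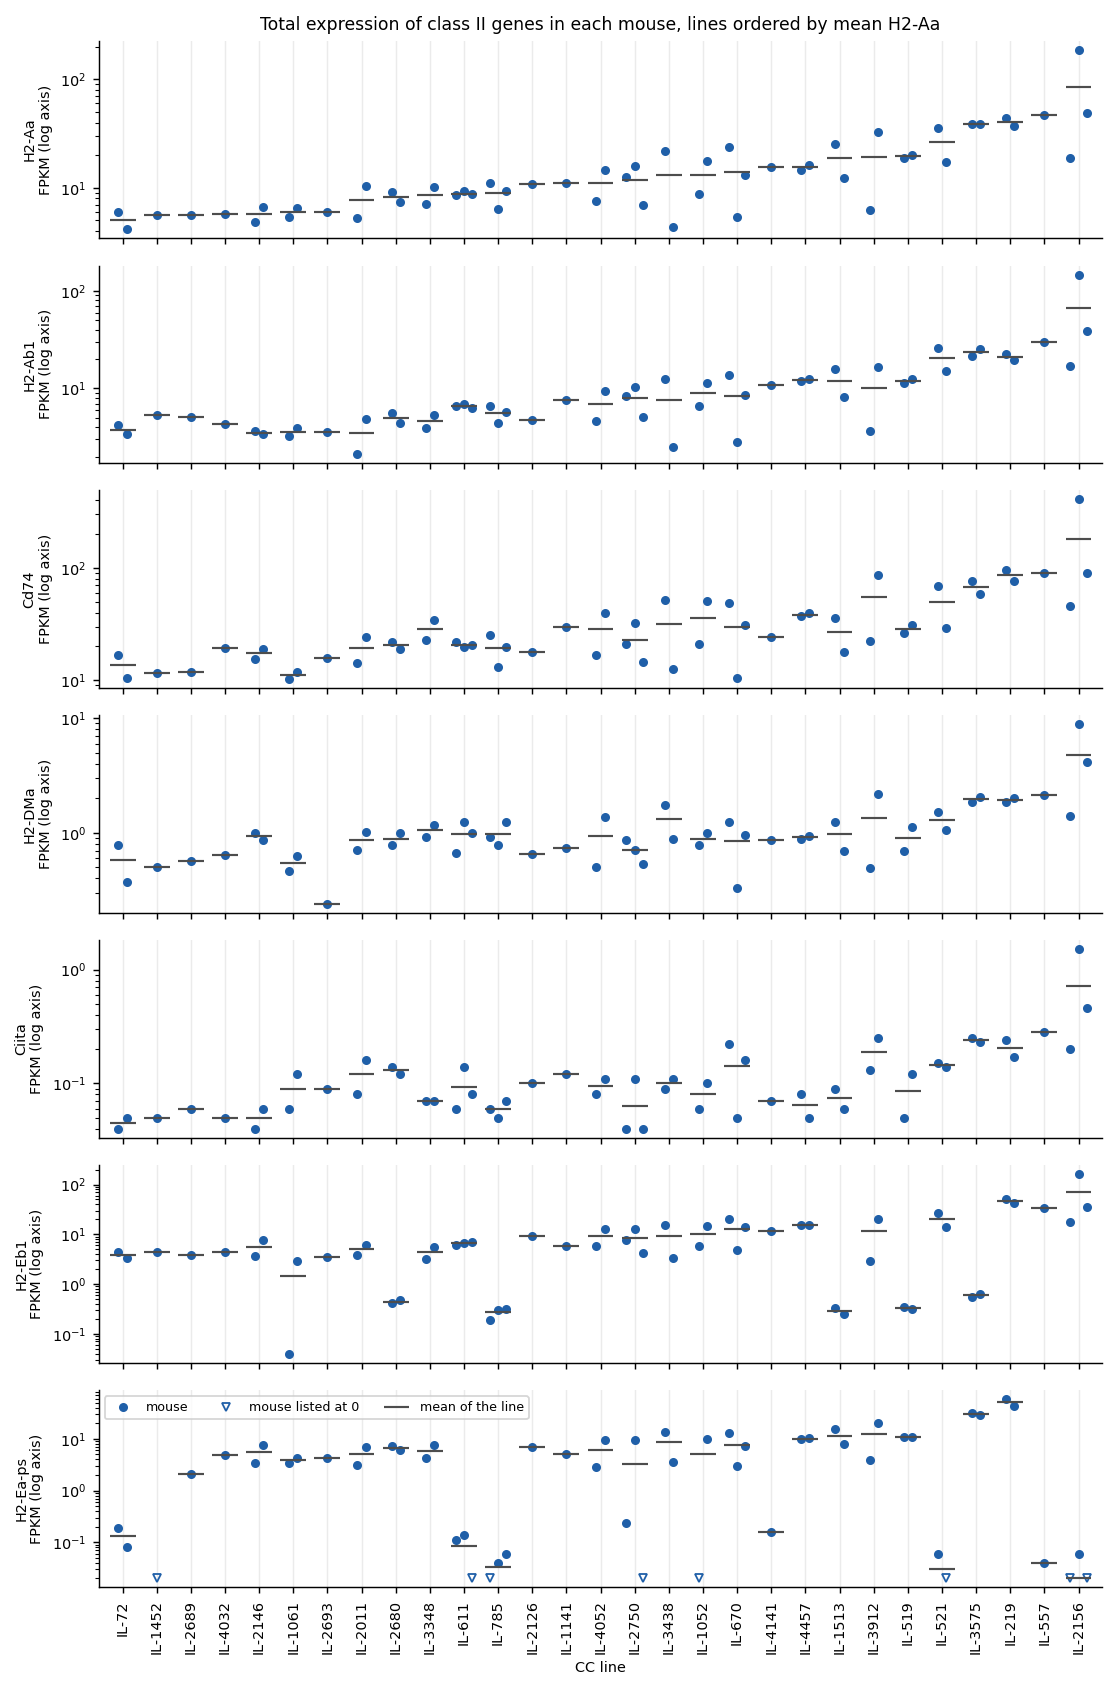
Total expression in FPKM (log axis) of the 6 genes and of H2-Ea-ps in each mouse (points), with the mean of each line (bars) and the 29 CC lines ordered by their mean H2-Aa. Open triangles mark mice listed at 0. IL-2156 is highest for 6 genes, while 5 lines are low in H2-Eb1 and 8 lines are low in H2-Ea-ps.

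H2-Eb1, the beta chain of the E molecule, differed from the other genes in that its values fell into separate ranges. In 12 mice it was between 0.04 and 0.63 FPKM (1 to 23 fragments), and in the other 43 mice it was between 2.85 and 162.4 FPKM (at least 74.05 estimated fragments). No mouse lay between 0.63 and 2.85 FPKM. All mice of 5 lines were in the low range. IL-785 had 0.19, 0.30 and 0.32 FPKM, IL-1513 had 0.33 and 0.25 FPKM, and IL-519 had 0.34 and 0.32 FPKM. IL-2680 had 0.41 and 0.47 FPKM, and IL-3575 had 0.56 and 0.63 FPKM. In 23 lines every mouse was in the high range, and in IL-1061 the 2 mice were split, with 0.04 FPKM (1 fragment) in mouse 1 and 2.85 FPKM (74.05 fragments) in mouse 2. The limit of 1 FPKM that separates the ranges was set after the values had been seen, and the groups are given as a description.

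Low H2-Eb1 was not accompanied by low transcripts of the A molecule. In IL-3575, with 0.56 and 0.63 FPKM of H2-Eb1, H2-Aa was 39.12 and 39.03 FPKM, above the median of all mice. In the 12 mice with low H2-Eb1, H2-Aa ran from 5.44 to 39.12 FPKM and Cd74 from 10.21 to 76.53 FPKM, within the ranges of the other 43 mice (4.15 to 187.77 FPKM and 10.33 to 408.35 FPKM) but for the Cd74 value of mouse 1 of IL-1061. H2-DMa ran from 0.46 to 2.06 FPKM in the mice with low H2-Eb1, again overlapping the others (0.24 to 8.83 FPKM).

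The alpha chain of the E molecule is listed in the files as H2-Ea-ps, at chr17:34478897-34481589 (mm9, reverse strand), and is annotated as a pseudogene in the reference genome. It also fell into separate ranges, with 19 mice between 0 and 0.24 FPKM (0 to 5 fragments) and 36 mice between 2.13 and 59.06 FPKM (at least 44 fragments). It was at 0 in 8 mice, where a count of 0 allows up to 3 fragments. All mice of IL-72, IL-521, IL-557, IL-611, IL-785, IL-1452, IL-2156 and IL-4141 were low. Mouse 2 of IL-2156, the highest mouse for H2-Aa, H2-Ab1, H2-Eb1, H2-DMa, Cd74 and Ciita, had 0.06 FPKM of H2-Ea-ps. IL-219 was highest, with 59.06 and 43.46 FPKM.

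The combination of the 2 E chain genes differed among lines. Both were high in all mice of 14 lines. H2-Eb1 was low and H2-Ea-ps high in 4 lines (IL-519, IL-1513, IL-2680 and IL-3575), and H2-Eb1 was high and H2-Ea-ps low in 7 lines. Both were low only in IL-785, whose 3 mice had 6 to 11 fragments of H2-Eb1 and 0 to 2 fragments of H2-Ea-ps. In IL-1061, where H2-Eb1 split the mice, H2-Ea-ps was 3.46 and 4.34 FPKM. H2-Ea-ps split IL-1052 (0 FPKM in mouse 1 and 10.12 FPKM in mouse 2) and IL-2750 (0.24 and 0 FPKM in mice 1 and 3 and 9.37 FPKM in mouse 2). These are the 2 lines that held mice unlike their line mates over all genes, but IL-2750 was divided differently. Over all genes its mice 2 and 3 were nearest to each other (r = 0.459) and mouse 1 stood apart. H2-Eb1 did not split these 2 lines, with 4.25 to 14.86 FPKM in their 5 mice.

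**Figure D2:**
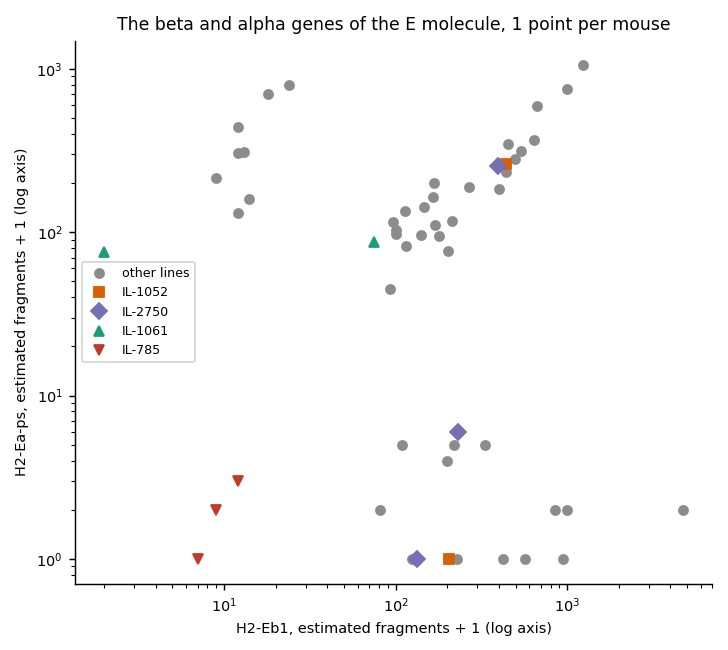
Estimated fragments plus 1 of H2-Eb1 (horizontal) and H2-Ea-ps (vertical), both on log axes, with 1 point per mouse. Mice fall into separate ranges for each gene, IL-785 is low for both, IL-1061 is split along H2-Eb1, and IL-1052 and IL-2750 are split along H2-Ea-ps.

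To ask whether these genes differed among lines beyond the spread of line mates, the line effect was tested gene by gene with edgeR's quasi-likelihood F test in those 21 lines that had more than 1 mouse (47 mice). The adjusted p was 5.89e-05 for H2-Aa, 5.91e-06 for H2-Ab1, 4.52e-08 for H2-Eb1, 0.00137 for H2-DMa, 0.000147 for Cd74 and 3.11e-05 for Ciita (edgeR, Benjamini-Hochberg over 15285 genes). All 6 genes thus passed the threshold of 0.05, but 88.5% of all genes tested did so as well, and the count is close to that background. All 6 also passed with RLE normalization (88.6% of all genes), without a filter on low counts (54.8%), with all 55 mice (84.4%), without IL-1052 and IL-2750 (89.1%) and with DESeq2 (73.3%). With at least 10 counts required in every mouse, H2-Eb1 and Ciita were not tested and the other 4 passed (94.1% of all genes). H2-DMa depended on a single mouse, since its adjusted p in this edgeR test was 0.0893 without mouse 2 of IL-2156. The other 5 genes passed without any of the 47 mice in turn.

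The share of the variation that lay between lines was described by the intraclass correlation, which is 1 if line mates are alike and near 0 if they differ as much as unrelated mice. Following the study, values were rounded to bins, ranked, and replaced by the normal quantiles of their ranks (van der Waerden scores). For H2-Eb1 it was 0.749 (line labels permuted 100000 times, one-sided, permutation p = 1e-05, the smallest that so many permutations can give). This was above 88.8% of the 11284 genes with a maximum of at least 2 FPKM, whose median was 0.555. H2-Aa (0.499, permutation p = 0.00311), H2-Ab1 (0.477, permutation p = 0.00531) and H2-DMa (0.480, permutation p = 0.00531) lay below that median. Cd74 had 0.381 (permutation p = 0.0239), above only 18.2% of the genes. For H2-DMa the value fell to 0.286 (permutation p = 0.0738) without rounding. Ciita stayed below 2 FPKM in all mice and took only 3 levels after rounding, and its value of 0.471 did not pass (permutation p = 0.0805). Without rounding it was 0.508 (permutation p = 0.00308).

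Accordingly, line mates often differed widely in the class II genes. H2-Aa differed 5.23-fold between the 2 mice of IL-3912 (6.22 and 32.52 FPKM), 5.0-fold between those of IL-3438 (21.77 and 4.35 FPKM) and 4.43-fold within IL-670 (23.78, 5.37 and 13.13 FPKM). It differed 9.95-fold within IL-2156. In contrast, the 3 mice of IL-611 had 8.52, 9.26 and 8.82 FPKM. The SD of log2(FPKM + 1) was 0.92 between line means and 0.77 within lines for H2-Aa, and 0.86 and 0.78 for Cd74. For H2-Eb1 it was 1.45 between line means and 0.81 within lines. When the 29 lines were ordered by their level, none of the 28 steps between neighbouring lines exceeded its own standard error for H2-Aa, H2-Ab1 or Cd74, and 1 step did so for each of H2-Eb1 (IL-1061 below IL-2693), H2-DMa and Ciita (IL-557 below IL-2156 for both). The order of the lines is therefore resolved only between lines that lie far apart.

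The levels of these genes varied together across lines. Over the 29 line means of log2(FPKM + 1), H2-Aa and H2-Ab1 had a Pearson's r of 0.967 and a Spearman's rho of 0.926 (permutation test, adjusted p = 1.5e-05 and 3.75e-05). H2-Aa and Cd74 had r = 0.943 and rho = 0.891, H2-Ab1 and Cd74 had r = 0.909 and rho = 0.863, and H2-DMa and Cd74 had r = 0.898 and rho = 0.791. Each of these 3 pairs had the same permutation p as H2-Aa and H2-Ab1. H2-Aa and H2-DMa had r = 0.859 and rho = 0.694 (permutation test, adjusted p = 1.5e-05 and 0.00024). Ciita had r = 0.870 and rho = 0.549 to H2-DMa (permutation test, adjusted p = 1.5e-05 and 0.00384). It had r = 0.795 and rho = 0.654 to Cd74 (permutation test, adjusted p = 1.5e-05 and 0.000343) and r = 0.757 and rho = 0.521 to H2-Ab1 (adjusted p = 1.5e-05 and 0.00573). All 10 pairs without H2-Eb1 had an adjusted p under 0.05 by either measure, out of 15 pairs computed. This count has no background of other gene pairs beside it, so ranks among all genes are given below. Without IL-2156 and IL-557, the 2 lines farthest from the median of H2-Aa, r was 0.950 for H2-Aa and H2-Ab1 and 0.909 for H2-Aa and Cd74. For H2-Ab1 and Ciita it was 0.585 without the 2 lines farthest from the median of H2-Ab1.

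Over all 29 line means, H2-Eb1 had r from 0.465 with H2-Aa to 0.565 with Cd74 (permutation test, adjusted p = 0.0108 and 0.0019). Its rho ran from 0.322 with H2-DMa to 0.545 with Cd74 (permutation test, adjusted p = 0.0876 and 0.00384). Because lines fell into separate ranges of H2-Eb1, it was also compared within its high range. These lines were picked by the values of H2-Eb1 itself, so the p-values that follow are descriptive. Within the 23 lines whose mice were all in the high range, H2-Eb1 followed H2-Aa with r = 0.970 and rho = 0.936 (permutation test, adjusted p = 1.25e-05 and 2.5e-05 over 5 pairs). In these lines it followed H2-Ab1 with r = 0.938 and rho = 0.870, Cd74 with r = 0.908 and rho = 0.795, and H2-DMa with r = 0.842 and rho = 0.681. With Ciita it had r = 0.748 and rho = 0.660 (permutation test, adjusted p = 7e-05 and 0.00085). Without the 2 lines farthest from the median of the other gene, r of H2-Eb1 was 0.952 with H2-Aa and 0.636 with Ciita.

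The same genes also moved together between mice of the same line. Deviations of each mouse from the mean of its line were taken in the 47 mice of 21 lines, which leaves out every difference among lines. H2-Aa and H2-Ab1 had r = 0.990, H2-Aa and Cd74 had r = 0.983, and H2-Aa and H2-DMa had r = 0.901. H2-Eb1 had r = 0.917 with H2-Aa. Ciita had r between 0.703 with H2-Eb1 and 0.805 with H2-DMa. All 15 pairs passed (permutation within lines, adjusted p between 5e-05 and 0.00113). The mice of IL-2156 lay at the ends of these relations. Without this line the r of the 15 pairs ran from 0.658 (H2-Aa and Ciita) to 0.986 (H2-Aa and H2-Ab1), and the adjusted permutation p from 5e-05 to 0.00253.

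**Figure D3:**
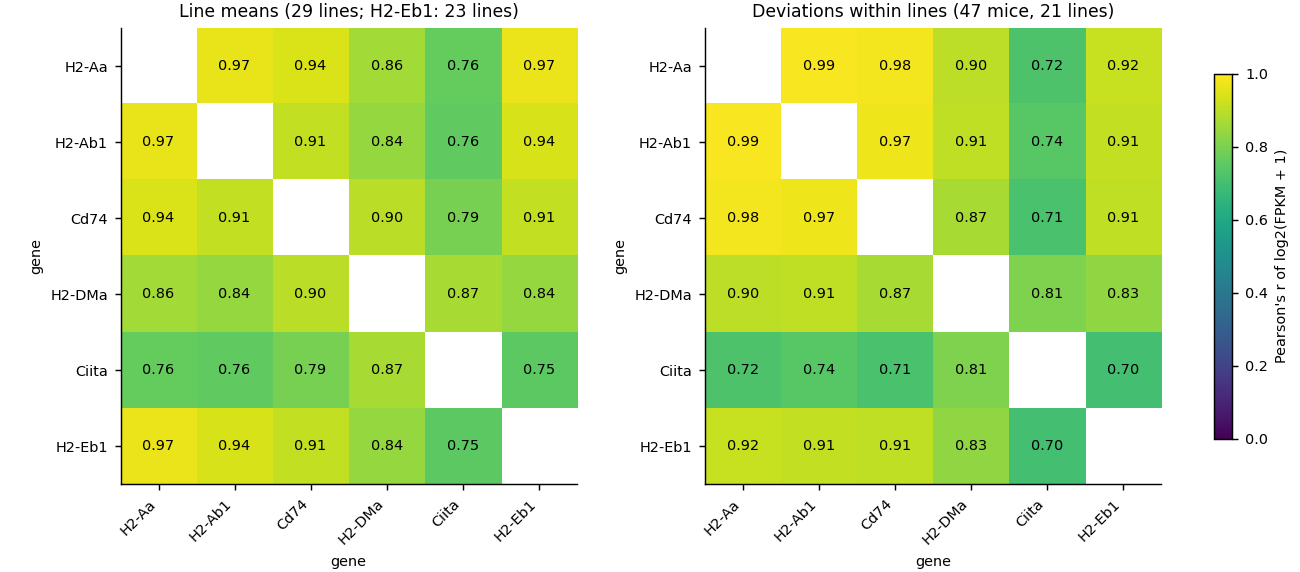
Pearson's r of log2(FPKM + 1) between the 6 genes over line means (left; pairs with H2-Eb1 over the 23 lines whose mice were all high) and over deviations of mice from their line mean (right). Over 29 line means r is highest for H2-Aa with H2-Ab1 (0.967) and lowest for H2-Ab1 with Ciita (0.757). Over the 23 lines r of H2-Eb1 is highest with H2-Aa (0.970) and lowest with Ciita (0.748). Over deviations it is highest for H2-Aa with H2-Ab1 (0.990) and lowest for H2-Eb1 with Ciita (0.703).

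**Figure D4:**
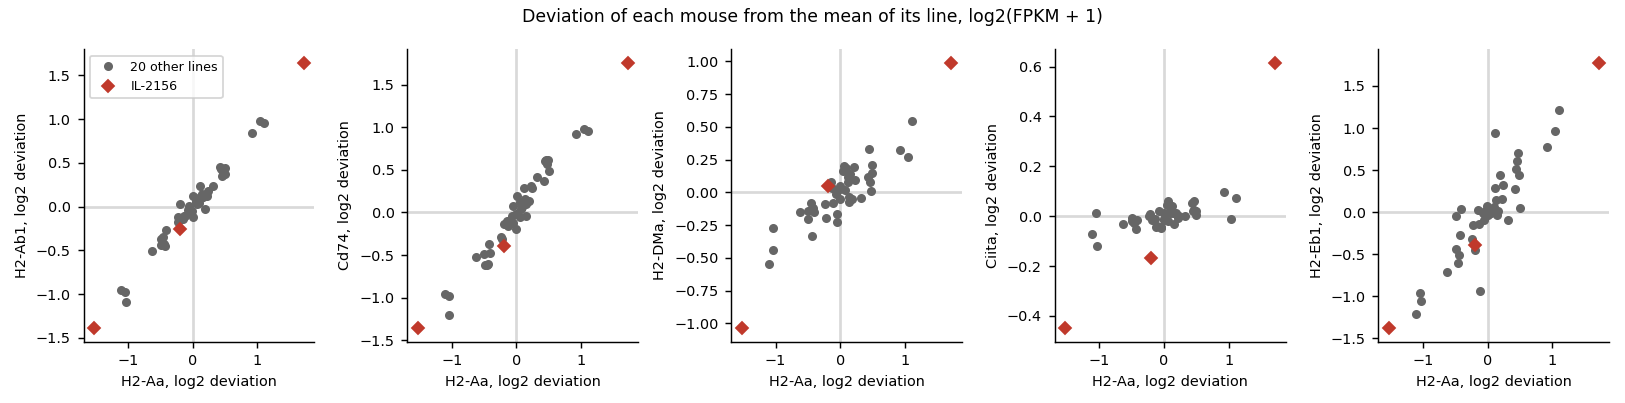
Deviation of each mouse from the mean of its line on the log2(FPKM + 1) scale, for H2-Aa (horizontal axes) against the other 5 genes (vertical axes), in 47 mice of 21 lines. The mice of IL-2156 are diamonds and lie at both ends of each relation.

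The correlation of H2-Aa with H2-Ab1 was the highest that H2-Aa had with any of 11283 other genes with a maximum of at least 2 FPKM, and Cd74 came second. Other pairs stood out less. For H2-DMa, Cd74 was at rank 2, H2-Aa at rank 44 and H2-Ab1 at rank 92. For Ciita, H2-Aa was at rank 9, Cd74 at rank 13, H2-DMa at rank 100 and H2-Ab1 at rank 151 of 11284 genes. Among the genes outside the 6, the one most like H2-Aa (rho = 0.833), H2-Ab1 (rho = 0.839) and Cd74 (rho = 0.903) was H2-DMb1, the partner subunit of H2-DMa, at 0.28 to 10.84 FPKM. The next for H2-Aa were Stk17b (0.718), Gm12657 (0.716), Rgs2 (0.697) and Fgl2 (0.682). For H2-Ab1 they were Gm12657 (0.683), Col3a1 (0.656), Map2k4 (0.647) and Cdk1 (0.647), and for Cd74 they were Lilra5 (0.760), Iqgap1 (0.752), Ctss (0.735) and 2310014H01Rik (0.733). H2-DMa was most like Fcgr3 (0.804), Ctss (0.779), Gngt2 (0.776), Fcer1g (0.768) and Tlr1 (0.766). Fcgr3 and Fcer1g encode chains of Fc receptors, and Ctss encodes cathepsin S, which trims the invariant chain. Ciita was most like Rc3h2 (0.753), Lsp1 (0.740), Chmp1b (0.679), Zeb2 (0.675) and S100a4 (0.668). Each rho is a description of likeness over 29 line means. The genes most like H2-Eb1 are not listed, because its lines fell into separate ranges.

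The proportions between these genes were also compared among line mates. The ratio of H2-Ab1 to H2-Aa, both in FPKM, had a median of 0.635 over mice and ran from 0.436 ± 0.0466 in IL-2011 (SD, n = 2) to 0.950 in the mouse of IL-1452. In IL-2156, where H2-Aa varied 9.95-fold, it was between 0.783 and 0.903. The intraclass correlation of its log2 value was 0.722 (permutation p = 3e-05), against 0.469 for H2-Aa and 0.55 for H2-Ab1 on the log2(FPKM + 1) scale, and the difference was not tested. For the log2 ratios, 1 FPKM was first added to both genes. IL-2146 was an exception, with 0.515 and 0.743 in its 2 mice. The ratio of Cd74 to H2-Aa ran from 1.43 ± 0.0259 in IL-1513 (SD, n = 2) to 3.36 in the mouse of IL-4032. Its log2 value had an intraclass correlation of 0.780 (permutation p = 1e-05, the smallest possible). IL-519 was also low, with 1.45 ± 0.104 (SD, n = 2), and IL-3348 high, with 3.30 ± 0.113 (SD, n = 2).

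The ratio of H2-Eb1 to H2-Aa had the highest intraclass correlation, 0.945 (permutation p = 1e-05, the smallest possible), and ran from 0.0152 ± 0.00129 in IL-3575 (SD, n = 2) to 1.14 ± 0.0175 in IL-219 (SD, n = 2). The ratio of H2-DMa to H2-Aa had 0.554 (permutation p = 0.00115). The ratio of Ciita to Cd74 had 0.409 (permutation p = 0.0203), and with 0.1 FPKM added it was 0.286 (permutation p = 0.0697). Ciita had a median of 0.09 FPKM, so the 1 FPKM added outweighs it, and the 0.409 describes mainly the level of Cd74. H2-DMa, with a median of 0.92 FPKM, is also damped by this addition. Reads were aligned to a single reference genome, and how founder differences in sequence affect these ratios was not tested.

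**Figure D5:**
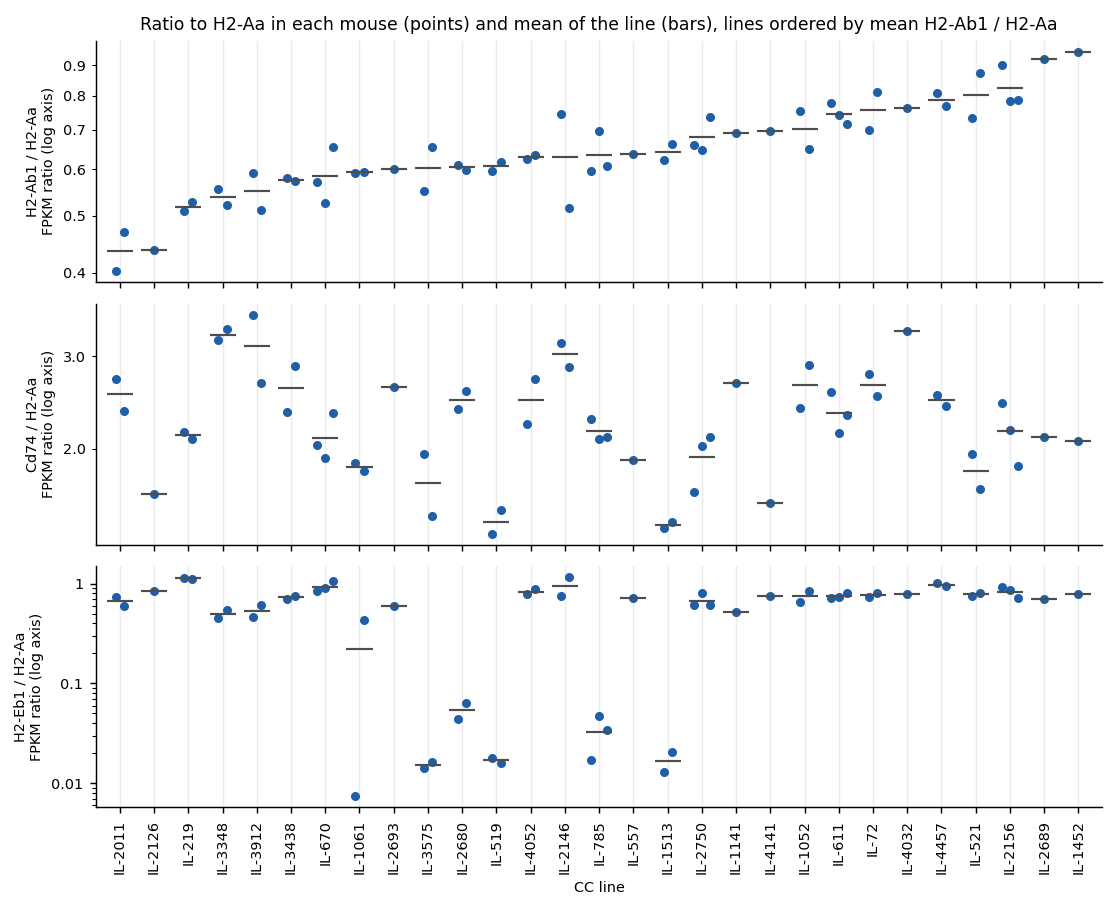
Ratio of H2-Ab1, Cd74 and H2-Eb1 to H2-Aa in FPKM (log axes) in each mouse (points) with the mean of each line (bars), lines ordered by mean H2-Ab1 to H2-Aa. In 5 lines the H2-Eb1 ratio is low in every mouse. Line mates lie far apart for the H2-Ab1 ratio of IL-2146, the Cd74 ratio of IL-3912 (2.67 and 3.60) and the H2-Eb1 ratios of IL-1061 and IL-2146 (0.754 and 1.16 in the latter).

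The isoform ratios of these genes were mostly made up of a single isoform. Cd74 was an exception. Its main isoform (ENSMUST00000050487) took between 58.2% and 85.5% of the gene (median 76.1%), and a second one (ENSMUST00000097563) took the rest. By line mean the main isoform was lowest in the mouse of IL-2689 (61.5%) and in IL-1513 (65.1% ± 0.212, SD, n = 2). It was highest in IL-519 (81.6% ± 3.29, SD, n = 2). The lowest mouse of all was in IL-3575, where the 2 line mates differed widely, with 58.2% and 74.6%. The SD of this percentage was 5.23 between line means and 3.84 within lines. For H2-Aa the main isoform (ENSMUST00000040655) had a median of 99.6% and a lowest value of 64.1%. H2-Eb1 was carried by ENSMUST00000074557, which took at least 96.1% in every mouse with at least 20 fragments of the gene. For Ciita only 11 mice had 20 fragments or more, so its isoforms are not described.

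The other genes of the pathway were taken from a list of named roles. Of the other class II chains and chaperones, 4 of 5 tested genes differed among lines (edgeR adjusted p of 8.69e-06 for H2-Ea-ps, 7.52e-05 for H2-DMb1, 0.0237 for H2-DMb2 and 0.0102 for H2-Ob). H2-Oa (0 to 0.72 FPKM) had an adjusted p of 0.518, and H2-Eb2 (0 to 0.25 FPKM) was too low to be tested. All 11 regulators tested passed, among them Rfx5 (0.59 to 2.64 FPKM), which binds the X box, Nfyb (4.55 to 32.72 FPKM), which binds the Y box, and Irf1 (4.28 to 26.69 FPKM), which relays interferon signals to Ciita. The highest Irf1 value was that of mouse 2 of IL-2156, while its Rfx5 value was 1.77 FPKM against a median of 1.58 FPKM.

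Of the proteases and turnover enzymes, 7 of 8 genes passed, with Ctss at 2.55 to 60.27 FPKM and Ifi30, a lysosomal reductase, at 1.68 to 30.39 FPKM. March8, a ubiquitin ligase, did not pass (edgeR adjusted p = 0.259). The costimulatory receptors Cd80 and Cd86 passed, and Cd40 did not (edgeR adjusted p = 0.417). All 9 tested genes listed as neighbours of the class II genes on chromosome 17, some lying among them, and all 5 class I genes passed. These counts stand beside the 88.5% of all genes that passed. The median intraclass correlation of the 5 class I genes was 0.676, and that of the 7 measured neighbours on chromosome 17 was 0.677, against 0.480 for the 5 class II genes that reached 2 FPKM and 0.555 for all genes. H2-K1, a class I heavy chain, had 0.761 and 62.48 to 893.83 FPKM.

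Markers of several cell types were summed in each mouse, among them T cells, which are not among the carriers of class II named above. The summed FPKM of 11 Kupffer cell markers ran from 19.97 to 531.94, with a median of 110.41, and was highest in mouse 2 of IL-2156. None of the 11 was at 0 in any mouse, and Marco reached 75.39 FPKM in that mouse against a median of 0.92 FPKM. The 9 B cell markers summed to 0.22 to 17.97 FPKM, highest in mouse 2 of IL-3912, and Ms4a1, Pax5, Blk, Fcrla and Cr2 were each at 0 in some mouse. The 6 T cell markers summed to 0.32 to 6.26 FPKM, with 5 at 0 in some mouse, and were highest in mouse 2 of IL-3912 (6.26) and mouse 2 of IL-2156 (6.1). The 7 dendritic cell markers summed to 0.66 to 3.66 FPKM, with 4 at 0 in some mouse, and were highest in mouse 2 of IL-2156.

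Over the 29 line means, 9 of the 35 relations of H2-Aa, H2-Ab1, H2-DMa, Cd74 and Ciita with 7 marker lists had an adjusted p under 0.05 by Spearman's rho and 16 by Pearson's r, out of 42 relations computed. By r, all 5 genes passed with the Kupffer cell, dendritic cell and T cell markers, and Cd74 passed with the sinusoidal endothelial markers. H2-DMa followed the Kupffer cell markers most closely (r = 0.705, rho = 0.708, permutation test, adjusted p of rho = 0.00126). Cd74 followed them with r = 0.693 and rho = 0.629 (permutation test, adjusted p of rho = 0.00462). H2-Aa had r = 0.518 and rho = 0.365 with these markers (permutation test, adjusted p of r = 0.015 and of rho = 0.136). Without the 2 lines farthest from the median of the markers, r was 0.666 for H2-DMa and 0.641 for Cd74. By rho, H2-DMa, Cd74 and Ciita also passed with the dendritic cell markers (rho of 0.636, 0.490 and 0.492, permutation test, adjusted p of 0.00462, 0.0404 and 0.0404). They passed with the T cell markers as well (rho of 0.521, 0.504 and 0.530, permutation test, adjusted p of 0.0375, 0.0404 and 0.0359), and Cd74 passed with the sinusoidal endothelial markers (rho = 0.478, permutation test, adjusted p = 0.0464). None of the 5 genes passed by either measure with the B cell, bile duct or hepatocyte markers, where rho with the B cell markers was between 0.096 for H2-Ab1 and 0.413 for Ciita. The bile duct sum was mostly Spp1, whose median was 25.13 FPKM against 0.51 FPKM for Krt19, the next highest, so it says little about the other markers. The dendritic cell sum (median 1.4 FPKM) leaned on Zbtb46 (median 0.61 FPKM), ahead of Clec9a (0.24 FPKM) and Batf3 (0.21 FPKM). The other dendritic cell markers had medians of 0.03 to 0.07 FPKM, so this sum says little about them.

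Deviations within lines were compared with the same markers. Those of Cd74 had r = 0.766 with those of the Kupffer cell markers, 0.849 with the T cell markers, 0.80 with the dendritic cell markers and 0.673 with the B cell markers. For H2-Aa the values were 0.721, 0.817, 0.809 and 0.674. With the hepatocyte markers they were 0.0872 for Cd74 and 0.0865 for H2-Aa, and with the bile duct markers -0.0619 and 0.0046. Without IL-2156, r of Cd74 with the Kupffer cell markers was 0.679. The part of these cell types in the differences of the class II genes was not tested.

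Age, body weight and depth were compared with the same line means. None of the 15 relations of H2-Aa, H2-Ab1, H2-DMa, Cd74 and Ciita passed after adjustment over 18 relations, and 1 had an unadjusted p under 0.05, that of H2-DMa with depth (rho = 0.403, permutation p = 0.0315, adjusted p = 0.189). Cd74 had rho = 0.357 with body weight (permutation p = 0.058, adjusted p = 0.209) and rho = 0.363 with depth (permutation p = 0.0547, adjusted p = 0.209). H2-Eb1, whose lines fell into separate ranges, had rho = 0.452 with body weight (permutation p = 0.0152, adjusted p = 0.189). With age it had rho = 0.405 (permutation p = 0.0305, adjusted p = 0.189) and with depth rho = -0.133 (permutation p = 0.488), so it did not pass either.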

How the data were processed

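Liver mRNA of 55 mice of 29 CC lines was sequenced from stranded libraries as paired ends, and each mouse was assigned to its line by its label. Mice of a line are numbered in deposit order. The authors aligned fragments with Bowtie and quantified them with RSEM (version 1.2.18 per the labels) on mm9 with an Ensembl annotation. The deposited expected counts are fragments that RSEM estimated per gene and isoform, not normalized, with fragments matching several places shared out. RSEM divided by effective length and by the mouse's total to give the deposited TPM and FPKM. For isoforms, the percent of the gene's expression was deposited too. Intervals of counting error were not derived from FPKM. The depth was 20.5 to 34.0 M fragments per mouse, and genes with few fragments, such as Ciita and H2-DMa, are correspondingly imprecise.

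Expected counts were rounded to whole numbers for edgeR 4.0.16 (TMM, default filtering of low genes, quasi-likelihood F test of line, 47 mice of 21 lines, Benjamini-Hochberg adjustment over 15285 genes). DESeq2 1.42.0 (likelihood ratio test) was an alternative. For intraclass correlations, FPKM were rounded to bins of 0.5 FPKM, or of the gene's maximum over 200 where that is larger, and turned into van der Waerden scores, with 100000 permutations. Similarity between mice was Pearson's r of these scores over genes, a check made after the data had been seen. Correlations used log2(FPKM + 1) and 100000 permutations. Cell type levels are summed FPKM of marker lists. Named genes are the 6 members, the genes of the listed roles, and for each member the 5 genes with the highest Spearman correlation over line means. The members and lists were chosen with earlier results of these data known. Alternatives changed the normalization, test, filter, unit, pseudocount, rounding and samples. Leaving out IL-2156 was chosen after the data had been seen.

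The tests were tested on simulated data. With changes placed in 1 line of 3 mice (IL-611) and no other line effect, edgeR recovered 58 of 100 2-fold changes and 81 of the 4-fold changes. It made 4 false calls among 143 called genes, so many changes confined to 1 line can be missed. Changes in a line of 2 mice, as in 16 lines here, were not simulated. Promoters came from the RefSeq table. The software was R 4.3.3, Python 3.11.15, pandas 2.3.3, numpy 2.4.6, matplotlib 3.10.9 and scipy 1.17.1.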

Additional observations from a re-analysis of the deposited data

How the results depend on the processing

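All 6 genes passed the test of line under RLE normalization, without a filter, with DESeq2, with all 55 mice, and without IL-1052 and IL-2750, and the 4 genes that had 10 counts in every mouse passed under that filter. With each of the 47 mice left out in turn, 5 to 6 genes passed, and 13129 to 13599 of all genes. These refits kept the genes and trended dispersions of the full fit, and a lone line mate was assumed to vary like the other lines. The intraclass correlation of H2-DMa did not pass with log2(FPKM + 1) (0.367), log2(FPKM + 0.1) (0.376), unrounded FPKM (0.286), TPM (0.267) or scaled counts (0.248). That of Ciita passed with unrounded FPKM (0.508), TPM (0.562), scaled counts (0.489) and the 21 lines with at least 2 mice (0.383). The ratio of Ciita to Cd74 did not pass with 0.1 FPKM added (0.286). With each of the 55 mice left out in turn, intraclass correlations ran from 0.431 to 0.625 for H2-Aa, 0.442 to 0.605 for H2-Ab1, 0.696 to 0.808 for H2-Eb1, 0.419 to 0.584 for H2-DMa, 0.320 to 0.497 for Cd74 and 0.291 to 0.984 for Ciita. Cd74 did not pass without mouse 1 of IL-1061, at 0.320 (permutation p = 0.0544), and Ciita passed without mouse 1 of IL-2156, at 0.984 (permutation p = 0.00767). With bins of 0.5 FPKM, mouse 1 of IL-2156 (0.20 FPKM of Ciita) rounds to 0 like nearly all mice. Its line mates (1.51 and 0.46 FPKM) do not, so the 0.984 reflects the rounding of a few mice. The cause of the change of Cd74 was not tested. The 10 pairs without H2-Eb1 passed under each alternative, with each line left out in turn included. No paired analysis was possible because each mouse carries an individual number and lines share none. Few fragments limit what can be said of Ciita and H2-DMa, and lines with 1 mouse have no replicate.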
